A study of Brassica oleracea with 7 samples.

Results

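Silique, the seed pod, 15 days after pollination was compared with stem of plants of 7 weeks in Brassica oleracea, the vegetable species that includes cabbage. Transcript levels were measured by RNA-seq of poly(A)+ RNA, and 25501 of 39481 genes were compared, namely those at 1 FPKM or more in silique or in stem. FPKM counts sequenced fragments relative to the length of the gene model and to the depth of the library. Among the genes kept, the lowest level in the higher of the pair was 1.0001 FPKM, and the highest level left out was 0.9996 FPKM. Each tissue was 1 library, so no value has a replicate check, no test was possible, and each difference is one between these libraries. The other libraries were root and leaf of 7 weeks, callus (a mass of cells grown in tissue culture), flower bud of 0.8 cm length and flowers open on the same day without the floral shoot. Silique, stem, root, leaf, bud and flower came from untreated plants grown in a greenhouse at 15 to 25 °C, and callus was kept at 25 °C. The cultivar, the number of plants per library and the part of the stem taken are not given in the labels.

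A silique in the cabbage family has 2 green walls, the valves, which enclose the developing seeds and are joined to a central partition. Seeds at mid development hold an embryo and an endosperm, tissues with gene programmes of their own, including reserve synthesis. A stem is built of epidermis, green cortex, pith and vascular strands, whose xylem and fibres thicken and lignify their walls. Both organs thus hold green parenchyma and vascular tissue, and only the silique holds seeds. In such mixed organs, fewer cells of a type and less RNA per cell cannot be told apart. The labels could not be checked against marker genes, because the table gives IDs without names, and 0 of them were found among the 53125 genes listed by RefSeq for the species.

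Judged by the width of the deposited intervals, 9880774 fragments fell in gene models in silique and 8809332 in stem. The divisor of each column, the fragment total that its FPKM values are scaled to, implied a share in gene models of 71.3% for silique and 64.6% for stem. The 7 libraries ranged over 8459141 (flower) to 10598033 (root) such fragments. Fragments were not whole in silique or stem for 17.1% of the genes compared, which occurs where a fragment is divided between genes. The levels of such genes are uncertain.

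Most genes had similar levels in the pair. Of the 25501 genes, 17645 (69.2%) differed by less than 2-fold on the log2(FPKM + 1) scale, which understates the change of low genes. The median log2 ratio of silique over stem was 0.32, with quartiles of -0.29 and 0.83, so the typical gene was listed slightly higher in silique. A difference of at least 4-fold was found for 2404 genes (9.43%). Of these, 1353 (5.31% of the genes compared) were higher in silique, called silique-high below, and 1051 (4.12%) were lower, called stem-high. Silique-high genes were thus 56.3% of those past 4-fold on the deposited scaling. Non-whole fragments occurred in 13.9% of the silique-high and 14.7% of the stem-high genes. With silique FPKM lowered by the median log2 ratio, 0.32, before 1 was added, 1065 genes were higher and 1301 lower, a share of 45.0%. Trimmed mean rescaling, which lowered silique relative to stem by 0.35 on the log2 scale, gave 1138 higher and 1413 lower genes, a share of 44.6%. The balance of directions at 4-fold thus turned with the scaling.

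On the deposited scaling more genes were higher than lower in silique at each limit from 2-fold to 64-fold. The share higher was 61.7% at 2-fold, 56.3% at 4-fold, 58.0% at 8-fold, 63.1% at 16-fold and 72.6% at 64-fold. At 16-fold or more, 275 genes were higher and 161 lower in silique, and at 64-fold or more 45 were higher and 17 lower. Among all 21 pairs of the 7 tissues, silique and stem had the lowest share of genes past 4-fold. The next pair was bud and silique at 11.2%, and the highest share was 25.5% for flower and root. Silique against leaf had 2047 genes higher and 1081 lower in silique (11.9% in either direction), and silique against root had 3961 higher and 2061 lower (23.0%). These comparisons share the silique library with the one described here.

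**Figure D1:**
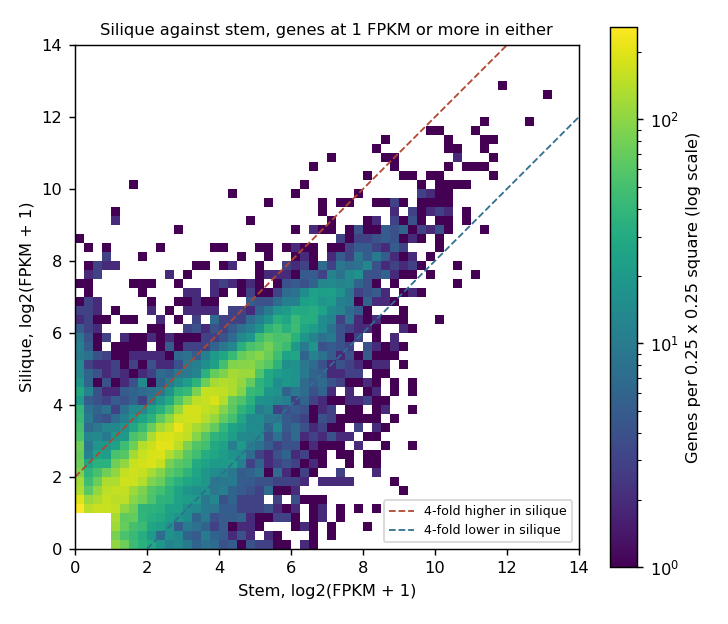
Levels in silique (vertical axis) and stem (horizontal axis), both as log2(FPKM + 1), for 25501 genes; colour gives the number of genes per square on a log scale, and the dashed lines mark 4-fold. Most genes lie along the diagonal, with 1353 above the upper line and 1051 below the lower line, and a column of genes stands at the left edge, where stem is at or near 0.

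The genes on either side differed in level. A mean log2(FPKM + 1) of the pair below 1, which applied to 1909 genes, cannot hold a 4-fold difference on this scale. Above that, silique-high genes were most frequent in the lowest bin. Where the mean log2(FPKM + 1) of the pair was 1 to 2, 597 of 5746 genes (10.4%) were silique-high and 186 (3.24%) stem-high. At a mean of 5 or more, 101 of 3533 genes (2.86%) were silique-high and 223 (6.31%) stem-high. The order of directions in these bins was the same after trimmed mean rescaling, with 9.49% silique-high and 3.96% stem-high at a mean of 1 to 2, and 2.03% silique-high and 8.06% stem-high at 5 or more. The median log2 ratio over all genes of a bin also moved with level, and was 0.40 at a mean of 1 to 2 and -0.13 at 7 or more. Among genes at 1 FPKM or more in both tissues, 423 were silique-high and 725 stem-high, the opposite balance to that over all genes compared.

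**Figure D2:**
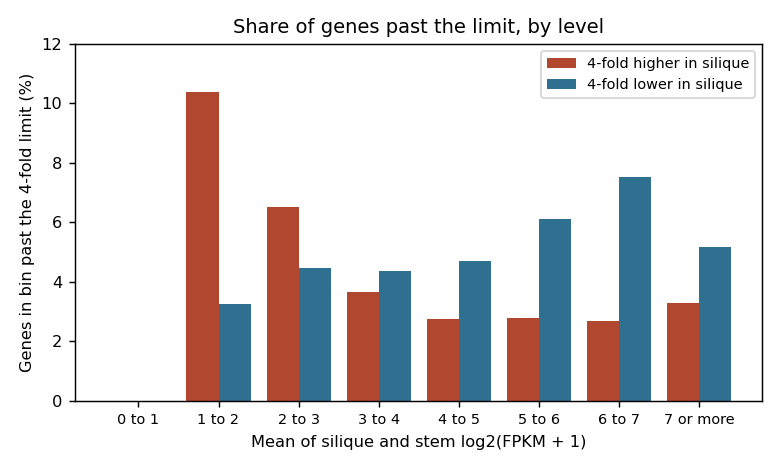
Share of silique-high genes (left bar of each pair) and stem-high genes (right bar), by the mean log2(FPKM + 1) of both tissues. The left bar is the taller one at a mean of 1 to 2 (10.4% against 3.24%), and the right bar is the taller one from 3 upwards, reaching 7.53% at 6 to 7.

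Detection was asymmetric too, but it was read from the same silique and stem levels and is not separate evidence. Of the genes compared, 20544 were at 1 FPKM or more in both tissues, 3393 in silique and not in stem, and 1564 in stem and not in silique. After trimmed mean rescaling, 2835 were detected in silique and not in stem, and 1923 in stem and not in silique. In 852 genes detected in silique, stem was listed at 0, and in 192 genes detected in stem, silique was listed at 0. Most of these genes were weakly expressed, with a median of 2.25 FPKM in silique for those detected there and not in stem, and 2.02 FPKM in stem for the converse. Of the 3393 genes, 930 (27.4%) were silique-high, and of the 1564, 326 (20.8%) were stem-high. Genes detected in silique and not in stem reached 1 FPKM in no other tissue in 879 cases (25.9%), against 141 (9.02%) of those detected in stem and not in silique. Root detected 33.6% of the genes found in silique and not in stem, and 49.6% of those found in stem and not in silique. The corresponding shares were 53.2% and 64.9% in callus and 38.0% and 42.3% in flower. They were close in bud, at 53.2% and 51.6%, and in leaf, at 46.6% and 47.3%. Of all genes compared, root detected 75.8%, callus 88.7%, flower 83.2%, bud 87.8% and leaf 84.6%.

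The 1353 silique-high genes had low medians in every other tissue. Their median was 13.1 FPKM in silique, with quartiles of 6.49 and 33.6 FPKM, and 0.269 FPKM in stem, with quartiles of 0 and 1.74 FPKM. Outside the pair the median was 1.87 FPKM in bud, 0.850 in flower, 0.811 in callus, 0.190 in leaf and 0.0998 in root. Bud was thus the nearest by this measure, though far below silique. For 476 genes (35.2%) none of the other 5 tissues reached 1 FPKM, against 4.25% of all genes compared. For 464 of them stem was also under 1 FPKM, and 153 of the 1353 were listed at 0 in all 6 other libraries. All 5 tissues outside the pair were at 1 FPKM or more for 287 genes (21.2%), against 64.8% of all genes compared.

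Silique was the highest of the 7 tissues for 936 of the 1353 genes (69.2%), against 14.1% of all genes compared. The choice of the 1353 genes favours this, since silique had to exceed stem. Among the rest, 116 had their highest level in bud, 102 in callus, 87 in leaf, 68 in flower and 44 in root. Among the 5 tissues outside the pair, 1121 genes had a single highest tissue. Bud led with 382 genes (34.1%), before callus with 245 (21.9%), flower with 218 (19.4%), leaf with 185 (16.5%) and root with 91 (8.12%). Over all genes compared, bud was the highest of these 5 for 17.8% and callus for 28.6%.

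The 1051 stem-high genes had another profile. Their median was 2.42 FPKM in silique and 29.8 FPKM in stem, with quartiles of 0.704 and 7.81 FPKM in silique and of 12.2 and 83.2 FPKM in stem. Root, at a median of 16.6 FPKM, and callus, at 13.9 FPKM, came next, and bud (5.30 FPKM), leaf (4.20 FPKM) and flower (3.96 FPKM) were lower. Few of these genes were limited to the stem. In 10 genes (0.951%) none of the 5 tissues outside the pair reached 1 FPKM, against 4.25% of all genes compared. All 5 did in 535 genes (50.9%), which is also below the 64.8% of all genes compared. None of the 1051 genes was listed at 0 in all 6 libraries other than stem. Stem was the highest tissue for 458 genes (43.6%) and root for 355 (33.8%). Root was the highest of the 5 tissues outside the pair for 519 of the 1051 genes (49.4%), against 13.5% over all genes compared. Callus was so for 187 genes (17.8%), which is below its 28.6% over all genes compared.

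**Figure D3:**
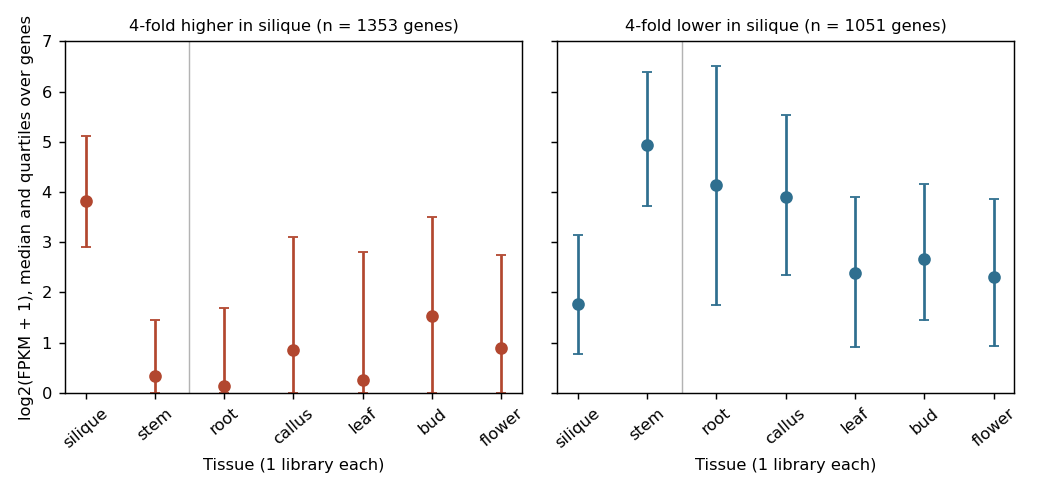
Median (points) and quartiles (bars) over genes of log2(FPKM + 1) in each tissue, for the 1353 silique-high genes (left) and the 1051 stem-high genes (right). On the left every median other than that of silique lies low, bud being the next at 1.87 FPKM. On the right all other tissues lie between silique and stem, with root (16.6 FPKM) and callus (13.9 FPKM) the highest of them.

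To describe each gene's profile, each tissue outside the pair was placed above or below the midpoint of the silique and stem levels on the log2(FPKM + 1) scale. The shares over all genes compared were not computed for this placement. Over those genes callus had the highest median of any tissue, at 8.76 FPKM, and root the lowest, at 4.45 FPKM. Among the 1051 stem-high genes, root lay on the stem side of the midpoint for 648 (61.7%) and callus for 640 (60.9%), against 263 (25.0%) for bud, 246 (23.4%) for leaf and 232 (22.1%) for flower. Root and callus together, and no other tissue, did so for 362 genes (34.4%). In that group the medians were 2.35 FPKM in silique and 47.6 FPKM in stem, beside 85.4 FPKM in root and 35.7 FPKM in callus, and 3.07, 2.28 and 1.77 FPKM in bud, leaf and flower. At the median these genes were thus higher in root than in stem, which the grouping favours. Over all 1051 stem-high genes, root was above stem in 394 (37.5%). The share of stem-high genes with callus on the stem side depended on the scaling. It was 44.2% after trimmed mean rescaling, where that for root was 60.5%. Another 167 genes (15.9%) lay on the stem side in bud, leaf or flower and in neither root nor callus, with medians of 2.47 FPKM in silique and 23.7 FPKM in stem, and of 12.2 FPKM in leaf, 11.9 FPKM in bud and 0.980 FPKM in root. For 106 genes (10.1%) no other tissue lay on the stem side, and their medians were 4.43 FPKM in silique, 33.0 FPKM in stem and 1.84 to 3.50 FPKM elsewhere.

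Among the 1353 silique-high genes, the largest group had no other tissue on the silique side of the midpoint. It held 643 genes (47.5%), with a median of 12.5 FPKM in silique, 0.0599 FPKM in stem and 0 in each of the other 5. Bud lay on the silique side for 499 of the 1353 genes (36.9%), callus for 371 (27.4%), leaf for 315 (23.3%), flower for 304 (22.5%) and root for 211 (15.6%). The shares over all genes compared were again not computed. In 190 genes (14.04%) bud or flower lay on the silique side and leaf, root and callus did not. Their medians were 12.5 FPKM in silique and 0.388 FPKM in stem, and 8.63 FPKM in bud and 4.45 FPKM in flower. In 115 genes (8.50%) leaf lay on the silique side, and root and callus did not, with medians of 20.5 FPKM in silique, 2.09 FPKM in stem, 18.4 FPKM in leaf and 0.535 FPKM in root. The remaining 405 genes (29.9%) had root or callus on the silique side. Their medians were 12.8 FPKM in silique and 0.970 FPKM in stem, and 14.9 FPKM in callus and 4.85 FPKM in root. Stem had the lowest median of the 7 tissues in this last group, which the choice of genes and the grouping favour.

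The size of the difference went with different profiles in the 2 directions. Among genes 4-fold to 8-fold higher in silique, silique was the highest tissue for 60.4% of 753, and among those at least 32-fold higher for 93.5% of 124. Grouping by the level of silique over stem favours such a rise. The genes at least 32-fold higher had a median of 66.5 FPKM in silique and 0.265 FPKM in stem, and of at most 0.0470 FPKM in every other tissue. In 82 of the 124 genes (66.1%) none of the 5 tissues outside the pair reached 1 FPKM. Among genes 4-fold to 8-fold lower in silique, root was the highest tissue for 29.1% of 616, and among those at least 32-fold lower for 53.8% of 65. The rise was not steady, with 39.1% of 274 at 8-fold to 16-fold and 35.4% of 96 at 16-fold to 32-fold. In these 65 genes the medians were 1.27 FPKM in silique and 140.4 FPKM in stem, beside 209 FPKM in root and 61.2 FPKM in callus. All 65 reached 1 FPKM in at least 2 tissues outside the pair.

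**Figure D4:**
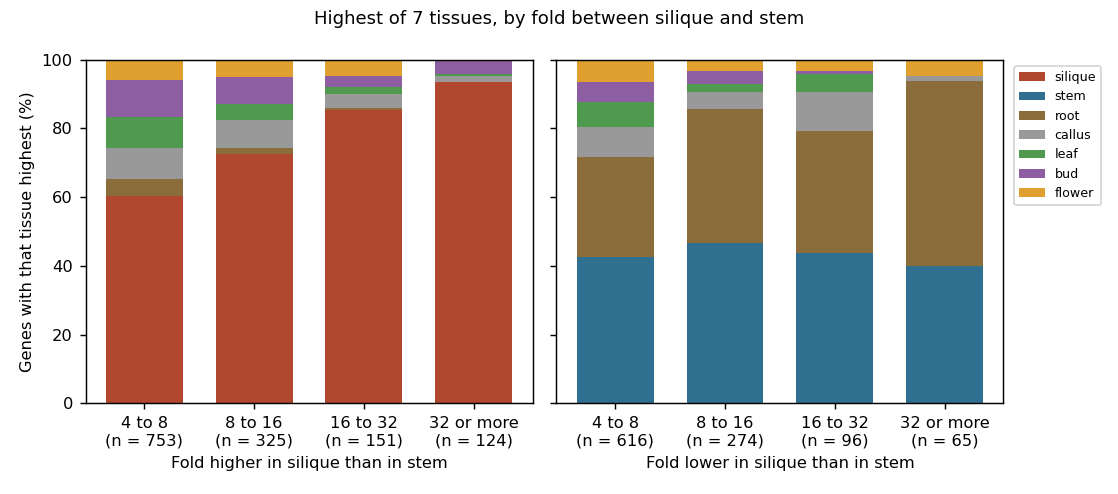
Share of genes with each tissue highest of the 7, by fold between silique and stem, for genes higher (left) and lower (right) in silique. On the left, silique is highest for 60.4% of genes at 4 to 8-fold and 93.5% at 32-fold or more. On the right, root is highest for 29.1% and 53.8% in these bins, with 39.1% and 35.4% in the bins between.

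Named IDs were the 2 with the largest ratio in each direction among genes at 10 FPKM or more. Bol023115 (Scaffold000102, 662977 to 663303) reached 414 FPKM in silique, with a deposited interval of 392 to 437 FPKM, and was listed at 0 in stem and in the other 5 libraries. As 3 fragments in stem would have been 0.952 FPKM, silique was at least 435-fold higher than stem. Its implied coding length was 231 bases, and 1326 fragments lay behind the silique value. Bol004744, on Scaffold000316 at 332592 to 334645, reached 1184 FPKM in silique (1168 to 1199 FPKM) against 1.99 FPKM in stem (1.34 to 2.63 FPKM, 38 fragments). Its log2 ratio was 8.63, with a range of 8.33 to 9.001 from the interval bounds. Leaf, at 0.414 FPKM, was its highest tissue outside the pair, and bud was at 0.105 FPKM, root at 0.0522 FPKM and flower and callus at 0. Outside silique, both genes were thus below 2 FPKM in every library.

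The 2 IDs that were lowest in silique relative to stem differed from each other in the remaining tissues. Bol022991 (Scaffold000103, 1112589 to 1114068) had 2.02 FPKM in silique (1.14 to 2.90 FPKM, 21 fragments), against 533 FPKM in stem (519 to 548 FPKM). The log2 ratio was -7.47, with a range of -8.00 to -7.06. It was at 329.5 FPKM in flower, 111 FPKM in leaf and 58.3 FPKM in bud, but at 3.99 FPKM in callus and 1.17 FPKM in root. Silique and root were therefore its lowest tissues, among organs where flower, bud and leaf were high. Bol021992 (Scaffold000111, 1149427 to 1150200) had 0.636 FPKM in silique (0.117 to 1.16 FPKM, 6 fragments), against 255 FPKM in stem (245 to 266 FPKM), a log2 ratio of -7.29 with a range of -7.90 to -6.83. Its level was 209 FPKM in root and 33.8 FPKM in callus, and 3.55 FPKM in bud, 1.81 FPKM in leaf and 0.319 FPKM in flower. This profile was that of the group of 362 genes with root and callus on the stem side.

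**Figure D5:**
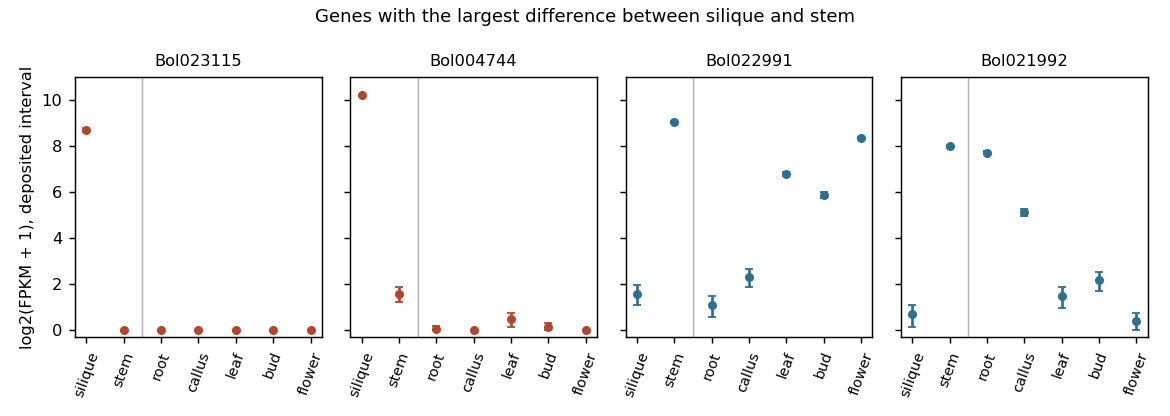
Levels in 7 tissues as log2(FPKM + 1), with deposited intervals as bars, for the 2 IDs highest and the 2 lowest in silique relative to stem. Bol023115 and Bol004744 are high in silique alone; Bol022991 is high in stem, flower, leaf and bud, and Bol021992 in stem, root and callus.

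Abundant genes were compared in the same way. In silique, 122 of the 961 genes at 100 FPKM or more (12.7%) were silique-high, against 5.31% of all genes compared. In stem, 228 of 1081 such genes (21.1%) were stem-high, against 4.12%. Being high in one tissue of the pair favours a call in its direction. Of the 122, 39 (31.97%) were also at 100 FPKM or more in bud, 34 (27.9%) in leaf, 21 (17.2%) in callus, 20 (16.4%) in flower and 10 (8.20%) in root. Over all 961 these shares were 63.0% in bud, 54.1% in leaf, 50.7% in callus, 48.2% in flower and 27.1% in root. For 26 of the 122 no tissue outside the pair reached 1 FPKM, and these were the 26 such genes among the 961. Of the 228, 145 (63.6%) also reached 100 FPKM in root, against 38.6% of the 1081, and 94 (41.2%) in callus, against 49.1%. In leaf 29 (12.7%) did so, against 44.7% of the 1081, in bud 26 (11.4%), against 52.0%, and in flower 24 (10.5%), against 43.6%. In all 228, as in all 1081, at least 1 tissue outside the pair reached 1 FPKM. The 1353 silique-high genes held 10.5% of the summed FPKM of silique and 0.883% of that of stem, and the 1051 stem-high genes held 1.47% in silique and 13.96% in stem. The 100 most abundant genes of each tissue had 62 members in common, which is 62.0% of each list. The silique list held 18 silique-high genes and the stem list 14 stem-high genes.

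Gene structure, which played no part in choosing the genes, differed from that of all genes compared. A coding length could be implied for 23444 of the 25501 genes, with a median of 1029 bases. The median was 889.5 bases for 1262 silique-high genes and 798 bases for 1001 stem-high genes, and it was 573 bases for 107 genes at least 32-fold higher. Of 1097 genes of up to 300 bases, 10.8% were silique-high and 6.84% stem-high, and of 1940 genes over 2400 bases, 2.11% were silique-high and 1.44% stem-high. Short genes rest on fewer fragments at a given FPKM, and the part of this in the lengths was not tested.

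Genes without introns were more frequent on both sides than among all genes compared, and most so on the silique side. They were 124 of 1262 silique-high genes (9.83%) and 39 of 1001 stem-high genes (3.90%), against 391 of 23444 genes compared (1.67%). Among genes that differed by less than 2-fold, 83 of 16107 (0.515%) were without introns. Of the 391, 124 (31.7%) were silique-high and 39 (9.97%) stem-high. The 124 had a median of 10.1 FPKM in silique and 0 in each of the other 6 libraries, and only 4 of them reached 1 FPKM in stem. The 39 had medians of 0.212 FPKM in silique and 11.7 FPKM in stem, with 13.001 FPKM in root and 6.17 FPKM in callus, and 33 of them reached 1 FPKM in root and 33 in callus. Among all genes at 1 FPKM or more in a tissue, those without introns were 1.24% in silique and 0.746% in stem. They were 1.42% in root and 1.42% in callus, and 0.593% in leaf, 0.438% in flower and 0.277% in bud. The highest level of any gene without introns was 829 FPKM in silique and 509 FPKM in stem. It was 319 FPKM in callus, 227 in root, 161 in leaf and 56.5 in flower, but 15.8 FPKM in bud. Of the numbers in the gene IDs, 6361 between 96 and 45937 belong to no gene analysed here. Whether genes without introns are missing among these is not known. The shares, including the 1.67% used for comparison, thus hold for the analysed genes only. Without intronless genes there were 1229 silique-high and 1012 stem-high genes.

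Some genes called in the same direction were neighbours. Of the 1353 silique-high genes, 179 (13.2%) had an adjacent gene that was also silique-high, against 6.68% of all genes compared that had such a neighbour. Of the 1051 stem-high genes, 116 (11.04%) had a stem-high neighbour, against 5.32% of all genes compared. Adjacent means next on a scaffold among all 39481 genes analysed, including those too low to be compared. The silique-high genes lay on 377 scaffolds and the stem-high genes on 343. There were 74 runs of 2 adjacent silique-high genes, 6 of 3, 2 of 4 and 1 of 5, and 52 runs of 2 and 4 of 3 among the stem-high genes. Where genes with non-whole fragments were left out, the share with a neighbour was 10.1% for the silique-high and 10.3% for the stem-high genes. The matching share over all genes compared was not computed for that setting.

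The longest run held 5 silique-high genes on Scaffold000001_P2 between 3159618 and 3174930. Each locus spanned 835 bases, and the levels in silique were 69.1, 13.6, 3.97, 152 and 99.5 FPKM in order along the scaffold, against 0 to 0.162 FPKM in stem. Fragments were not whole in any of the 5, so the level of each alone is uncertain. A run of 4 lay on Scaffold000164 between 575593 and 650195, with implied coding lengths of 2121 to 2142 bases. These genes were at 48.0, 66.8, 26.1 and 32.8 FPKM in silique and at 0 to 0.103 FPKM in stem, and the highest value outside the pair was 0.102 FPKM. Fragments were not whole in 3 of these 4. The other run of 4, on Scaffold000388 between 4002 and 17235, held 3 intronless genes of 387 to 414 bases at 6.28, 4.92 and 104 FPKM in silique, with 0, 0 and 0.379 FPKM in stem, and 0 in all 5 other libraries. The neighbouring 4th gene, of 2913 bases, had 4.34 FPKM in silique, against 0.327 FPKM in stem, and 11.03 FPKM in leaf. It lay just inside the limit, with a log2 ratio of 2.01.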

How the data were processed

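Per the file headers, the authors deposited a gene table of FPKM with lower and upper bounds for 7 tissues, in the layout of Cufflinks. The submitters' processing notes name TopHat 1.0.13. Quantifier, genome build and annotation: not given in the sources used here. Per the labels' protocols, no step marks strand, so overlapping genes on opposite strands cannot be told apart. Coordinates are the table's own, counted from 1.

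Ratios are log2((silique + 1)/(stem + 1)). Trimmed mean rescaling dropped 30% of log ratios and 5% of mean levels at each end. Fragments behind a value were taken as 4(FPKM/d) squared, d being its distance to the upper bound, and called whole within 0.02, widened for large counts n to 3e-06 times n to the power 1.5; 88.9% of silique and 89.6% of stem values above 0 were whole. Intronless genes gave each column's divisor and thereby lengths, of which 98.3% were multiples of 3 within 0.05 base, hence coding lengths. A length was used where tissues agreed within 0.5% and most values were whole, and a gene was called intronless where it matched the locus span within 0.2%. PCR copies were not marked, so intervals and floors of 3 fragments cover counting error only. The steps were run in Python 3.11.15 (NumPy 2.4.6, pandas 2.3.3) and tested on simulated counts. Genes, limits and the rule for named IDs (the 2 largest and 2 smallest ratios at 10 FPKM or more in the higher tissue) were chosen with earlier results of these data known.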

Additional observations from a re-analysis of the deposited data

How the results depend on the processing

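No paired analysis was possible because silique and stem are single libraries, with no replicate numbers to pair. A count was taken as moved beyond 1.5 times, and a share or median outside its 95% binomial interval, which covers counting of genes or fragments only. Over the settings tried, 67 values answering a comparison stayed and 63 moved; of the ratios of named IDs 11 stayed within their interval bounds and 5 moved, and none changed sign. Lowering silique by the median log2 ratio, leaving out genes with non-whole fragments and all settings for the midpoint were chosen after the data were seen. Depth limits the low genes, since a few fragments decide a ratio there.

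With a pseudocount of 0.1 there were 2772 silique-high and 1829 stem-high genes (60.2% silique-high), and with 0.5 the share was 59.2%. The 2-fold limit gave 4848 higher and 3008 lower genes (61.7% higher), and the 8-fold limit 600 higher and 435 lower. Genes at 1 FPKM or more in both tissues gave 423 silique-high genes and a share of 36.8%, and those at 5 FPKM or more in either a share of 53.5%. The share was 53.2% after upper quartile rescaling, 51.6% per fragment in gene models, 45.0% with the median ratio set to 0 and 44.6% after trimmed mean rescaling. The median log2 ratio was 0.38 with a pseudocount of 0.1, 0.30 at 5 FPKM or more in either and 0.26 at 1 FPKM or more in both. It was 0.33 after rescaling to equal sums, 0.24 to upper quartiles, 0.20 to fragments in gene models and 0.015 by trimmed means, where the cause is the scaling itself.

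Silique was the highest tissue for 71.7% of silique-high genes after trimmed mean rescaling and 80.2% at 8-fold, and for 74.1% without bud, 72.4% without flower, 72.2% without leaf and 73.8% without callus. Stem was highest for 65.8% of stem-high genes without root, 48.0% without callus, 46.8% without leaf and 46.7% without flower. Root was highest for 37.6% of stem-high genes after upper quartile rescaling and 40.5% at 8-fold. At 8-fold, root and callus each lay on the stem side for 72.4%, and bud on the silique side for 24.7%, against 61.7% for root, 60.9% for callus and 36.9% for bud at 4-fold. After trimmed mean rescaling callus lay on the stem side for 44.2% and bud on the silique side for 31.9%, and after upper quartile rescaling callus on the stem side for 52.9%. The cause of these moves was not tested, other than fewer genes or tissues where a limit or a tissue was changed.

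At a mean level of 1 to 2, 9.49% of genes were silique-high and 3.96% stem-high after trimmed mean rescaling, and 25.2% silique-high and 11.5% stem-high at 2-fold. At 5 or more 2.03% were silique-high and 8.06% stem-high after rescaling, and 9.65% silique-high and 15.1% stem-high at 2-fold. At 8-fold, 14.1% of silique-high genes were intronless, and the median coding length of stem-high genes was 738 bases. The share with a neighbour called the same way was 28.9% for silique-high and 22.0% for stem-high genes at 2-fold. It was 10.1% for silique-high genes without non-whole fragments, and 13.7% for stem-high genes after trimmed mean rescaling. The share over all genes compared was not computed for these settings, and it rises as more genes are called. After trimmed mean rescaling silique-high genes held 8.64% of the silique sum and 0.513% of the stem sum. Stem-high genes then held 2.22% of the silique sum and 16.7% of the stem sum. At 2-fold, higher genes held 22.1% of the silique sum and 5.003% of the stem sum, and lower genes 6.17% of the silique sum and 26.7% of the stem sum.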
